A study of Mus musculus with 6 samples.

Results

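Cytochrome P450 enzymes of families 2, 3 and 4 were described in the colon of BALB/c mice given 5-fluorouracil, alone or with berberine. The members were the genes whose symbol starts with Cyp, a family digit of 2, 3 or 4, a subfamily letter and a number, leaving out 13 rows named as pseudogenes with -ps. This gave 67 of the 30777 rows of the table, 40 in family 2, 9 in family 3 and 18 in family 4. All but Cyp4x1os, an antisense row overlapping Cyp4x1, carry the name of a P450 gene.

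RNA of whole colon tissue was sequenced in 6 libraries, 3 per group. Mice of the 5-Fu group were given 5-fluorouracil, a pyrimidine analogue used in chemotherapy, and mice of the 5-Fu+BBR group were given 5-fluorouracil and berberine, a plant alkaloid. Both groups are BALB/c, an inbred strain, and all 6 libraries carry 5-fluorouracil, so no level here is that of an untreated colon. The sources used here give no dose, time or age. Nor do they state that replicates are separate animals, so a p-value reflects no more than the spread among 6 libraries, which may be technical. The comparison asks which genes differ when berberine is added.

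P450 enzymes are haem proteins of the endoplasmic reticulum that insert an oxygen atom into their substrates with electrons passed on by the reductase Por and by cytochrome b5. Members of families 2 and 3 oxidise drugs, plant compounds and steroids, and some of family 2 also turn arachidonic acid into epoxides and hydroxylated products. Members of family 4 mostly hydroxylate the end of fatty acid chains, leukotrienes among them. The liver holds most of these enzymes, while the gut, lung and kidney each express sets of their own.

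Levels are given in 2 scales. The deposited FPKM, fragments scaled to transcript length and depth, was used wherever genes are set against each other. CPM, computed here from the deposited counts and TMM-normalised library sizes, was used between libraries. Values per library are in the order 1, 2, 3, and means are ± SD (n = 3 per group). Log2 fold changes are 5-Fu+BBR minus 5-Fu ± SE, from edgeR's quasi-likelihood test. That test gives no SE, so the SE was taken as the absolute log2 fold change over the square root of its F statistic, an approximation. Depth was similar throughout, with sums of 53824752 to 63831168 estimated counts. The genes of the Cyp2a, Cyp2c, Cyp2d, Cyp2j, Cyp3a, Cyp4a and Cyp4f subfamilies lie in clusters of similar copies. Reads can be split among such copies, so their single values are uncertain.

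The 300 bases around the start of the gene, 250 before and 50 after, are shown for 5 genes whose levels are described further on. Cyp2e1 had the smallest p of the members, and the other 4 were high in the same pair of 5-Fu+BBR libraries. They were picked after their values were seen. The sequences are from RefSeq on GRCm38.p6 and are written 5′ to 3′ on the strand of the gene. Capitals mark, on either strand, TATAAA (the core of a TATA box), AGGTCA (a half-site of nuclear receptors), CAAAGT (part of the site of HNF4 factors) and GTTAAT (part of the site of HNF1 factors). AGGTCA and CAAAGT can share bases.
Cyp2e1 (chr7:140763569-140763868, plus strand): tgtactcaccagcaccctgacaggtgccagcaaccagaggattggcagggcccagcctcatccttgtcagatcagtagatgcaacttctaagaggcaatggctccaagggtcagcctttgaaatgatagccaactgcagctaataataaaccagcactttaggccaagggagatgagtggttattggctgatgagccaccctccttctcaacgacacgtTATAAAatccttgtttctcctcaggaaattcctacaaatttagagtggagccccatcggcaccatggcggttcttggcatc
Cyp2c55 (chr19:39006769-39007068, plus strand): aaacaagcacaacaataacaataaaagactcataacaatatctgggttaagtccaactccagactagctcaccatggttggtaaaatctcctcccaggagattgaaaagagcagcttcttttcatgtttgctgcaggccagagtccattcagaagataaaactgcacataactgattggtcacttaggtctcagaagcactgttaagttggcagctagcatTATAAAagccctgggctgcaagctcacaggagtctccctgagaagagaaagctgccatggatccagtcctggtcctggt
Cyp2j5 (chr4:96664070-96664369, minus strand): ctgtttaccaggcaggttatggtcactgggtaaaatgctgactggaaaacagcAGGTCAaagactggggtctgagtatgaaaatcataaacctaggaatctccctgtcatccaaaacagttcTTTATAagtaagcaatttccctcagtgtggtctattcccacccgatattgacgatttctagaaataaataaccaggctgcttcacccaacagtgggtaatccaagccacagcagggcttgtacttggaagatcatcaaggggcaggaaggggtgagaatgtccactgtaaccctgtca
Cyp4b1 (chr4:115647672-115647971, minus strand): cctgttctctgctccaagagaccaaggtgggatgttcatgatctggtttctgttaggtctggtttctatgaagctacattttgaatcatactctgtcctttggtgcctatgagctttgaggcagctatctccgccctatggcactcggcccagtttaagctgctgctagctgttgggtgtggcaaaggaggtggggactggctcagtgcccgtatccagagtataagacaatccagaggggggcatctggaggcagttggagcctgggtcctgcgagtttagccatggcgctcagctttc
Cyp2a4 (chr7:26306942-26307241, plus strand): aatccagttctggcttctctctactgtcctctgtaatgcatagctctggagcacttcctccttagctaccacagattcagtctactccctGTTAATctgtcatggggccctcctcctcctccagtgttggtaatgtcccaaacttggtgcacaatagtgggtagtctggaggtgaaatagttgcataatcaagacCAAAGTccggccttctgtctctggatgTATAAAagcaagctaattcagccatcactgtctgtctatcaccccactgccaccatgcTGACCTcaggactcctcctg

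TATAAA lies at -31, -29 and -28 from the RefSeq start of Cyp2e1, Cyp2c55 and Cyp2a4. In the Cyp2j5 window it is on the other strand, at -128, and AGGTCA is at -197. The window of Cyp2a4 holds all 4 motifs, with GTTAAT at -160, CAAAGT at -55 and AGGTCA on the other strand at 30, inside the transcript. The window of Cyp4b1, which followed the same libraries as Cyp2j5, holds none of the 4. RefSeq gave such windows for 54 of the 67 members, 60 windows in all. TATAAA was in 24 of these (40.0%) and in 13.6% of the 32851 windows of all genes, and CAAAGT in 27 (45.0%) and 14.4%. AGGTCA was in 16 (26.7%) against 16.3%, and GTTAAT in 8 (13.3%) against 7.1%. Many of the members are copies of each other with similar promoters, and a match is not a bound site.

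A mean of at least 1 FPKM over the 6 libraries was taken as expressed, and 24 of the 67 members reached it, 16 in family 2, 1 in family 3 and 7 in family 4. Of all rows of the table, 43.1% did. A further 26 members had a mean between 0.1 and 1 FPKM, and 17 were lower. The lowest of the expressed members was Cyp2c69 at 1.05 FPKM, and the highest of the others was Cyp2w1 at 0.851 FPKM.

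Cyp2d34 was the most abundant member in each library. It was at 87.3, 66.0 and 159 FPKM in 5-Fu and at 123, 86.9 and 134 FPKM in 5-Fu+BBR, which was 26.7% to 41.6% of the summed FPKM of all members in a library. The groups overlapped, and its log2 fold change was 0.11 ± 0.38. It lies on chromosome 15 (82615965 to 82620945, GRCm38) in a row of Cyp2d genes, a subfamily known in humans for oxidising many drugs. Of the other 7 Cyp2d members, Cyp2d10 (mean over all libraries 13.3 FPKM), Cyp2d9 (12.6 FPKM), Cyp2d12 (8.99 FPKM), Cyp2d22 (5.88 FPKM) and Cyp2d26 (3.43 FPKM) were expressed. Cyp2d11 was at 0.458 FPKM, and Cyp2d40 had reads in 1 library only.

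After Cyp2d, the largest sums per subfamily were those of Cyp4f and Cyp2c. Summed FPKM of Cyp2c was 25.6 to 39.9 in 5-Fu and 39.8 to 124 in 5-Fu+BBR, and that of Cyp4f was 44.9 to 89.7 and 56.6 to 81.0, above Cyp2c in 4 of the 6 libraries. All 13 Cyp2c members lie on chromosome 19, from Cyp2c55 (start 39007019) to Cyp2c23 (end 44029208). Cyp2c68 led with 17.1, 19.3 and 23.7 FPKM in 5-Fu and 26.3, 24.4 and 52.0 FPKM in 5-Fu+BBR. All 3 libraries with berberine lay above the 3 without on this scale, though not in CPM, and edgeR gave a log2 fold change of 0.75 ± 0.32 (unadjusted p = 0.0529). Cyp2c55, an arachidonic acid hydroxylase known to be abundant in the mouse colon, had a mean of 17.2 FPKM over the 6 libraries. This came mostly from 5-Fu+BBR libraries 2 and 3 (26.4 and 58.0 FPKM), and the mean in 5-Fu was 4.59 ± 3.40 FPKM. Cyp2c67, Cyp2c40 and Cyp2c69 had means of 3.34, 2.29 and 1.05 FPKM. The other 8 members of the subfamily were below 1 FPKM, among them Cyp2c29, an abundant enzyme of the mouse liver, at 0.161 FPKM.

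Family 4 was led by the Cyp4f subfamily, some members of which inactivate leukotrienes by hydroxylating them. Cyp4f14, a leukotriene B4 hydroxylase, was at 13.5, 11.8 and 40.9 FPKM in 5-Fu and 24.3, 19.6 and 31.9 FPKM in 5-Fu+BBR. Its highest value was that of 5-Fu library 3, so the groups overlapped widely. Cyp4f40 (17.0 FPKM), Cyp4f16 (15.4 FPKM), Cyp4f13 (5.44 FPKM) and Cyp4f18 (1.10 FPKM), the last known from neutrophils, were also expressed. Their log2 fold changes lay between -0.29 ± 0.29 for Cyp4f40 and 0.50 ± 0.54 for Cyp4f18. Summed CPM of the neutrophil marker list was 519, 339 and 455 in 5-Fu and 418, 305 and 255 in 5-Fu+BBR, and its part in the values of Cyp4f18 was not tested. Cyp4v3, whose human counterpart hydroxylates fatty acids in the eye, had a mean of 3.53 FPKM.

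Among the other expressed members, Cyp2j6 had the steadiest level, 10.7, 14.4 and 9.62 FPKM in 5-Fu and 13.7, 11.4 and 11.9 FPKM in 5-Fu+BBR (log2 fold change 0.10 ± 0.14, the smallest SE of the tested members). Cyp2s1, a P450 of epithelia outside the liver, had a mean of 10.3 FPKM and a log2 fold change of 0.49 ± 0.22. Cyp3a13, known from the mouse gut, was the only one of the 9 family 3 members to be expressed, at 9.36 FPKM. Its group means were 8.31 ± 2.82 FPKM in 5-Fu and 10.4 ± 1.33 FPKM in 5-Fu+BBR, and the groups overlapped. The remaining expressed members, Cyp2f2 (8.61 FPKM), Cyp2e1 (6.27 FPKM), Cyp4b1 (2.65 FPKM) and Cyp2j5 (1.61 FPKM), owed their mean mostly to the 5-Fu+BBR libraries. In 5-Fu, Cyp4b1 and Cyp2j5 had means of 0.727 ± 0.158 and 0.355 ± 0.0878 FPKM, below the limit used here.

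**Figure D1:**
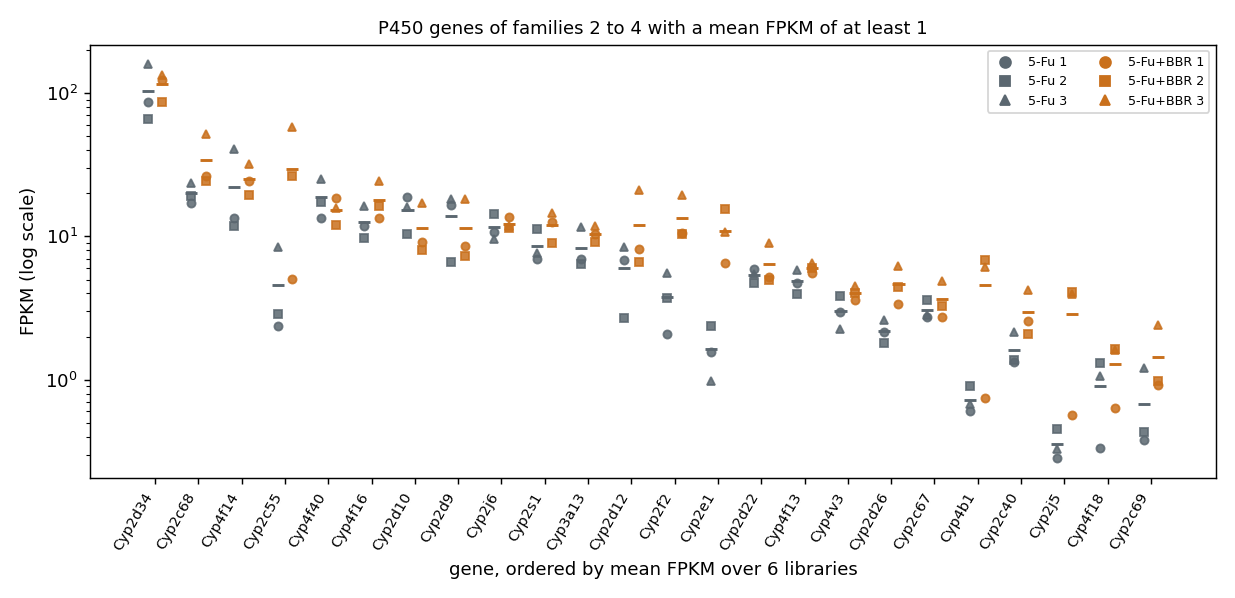
FPKM (log axis) of the 24 members with a mean of at least 1 FPKM, ordered by that mean from left to right. Each point is a library (grey 5-Fu, orange 5-Fu+BBR) and each dash a group mean; Cyp2d34 stands at the top with 66.0 to 159 FPKM, and in Cyp4b1 and Cyp2j5 the circle of 5-Fu+BBR library 1 sits near the grey points.

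The summed FPKM of the 67 members was 245, 216 and 382 in 5-Fu and 325, 314 and 503 in 5-Fu+BBR. The means were 281 ± 88.7 and 381 ± 106, and 5-Fu library 3 lay above 2 of the 3 libraries with berberine, so the sums of the groups overlapped. Library 3 of each group had the highest sum. In bulk tissue, fewer cells of a type and less RNA per cell cannot be told apart, here and in all values that follow.

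Of the 67 members, 53 passed the filter on low counts and were tested. With edgeR's quasi-likelihood test and an adjusted p under 0.05 as the threshold, 0 of the 53 passed, beside 15 of the 20101 genes tested (0.0746%). The smallest adjusted p was 0.0705, for Cyp2e1. At an unadjusted p under 0.05, 15 members were higher in 5-Fu+BBR, where 9.48% of all genes tested were, and 1 member, Cyp3a11, was lower, where 6.08% were. The groups did not overlap in CPM for 11 tested members that were higher (12.3% of all genes tested) and for 1 that was lower (9.68%). In FPKM, 11 rather than 12 did not overlap, with Cyp2c68 gained and Cyp2a5 and Cyp4v3 lost. With DESeq2, which called 6.48% of the genes that it gave an adjusted p, 8 of 48 members passed, all of them higher, and with limma-voom 0 passed. The 8 were Cyp2e1, Cyp2j5, Cyp2f2, Cyp4b1, Cyp2d26, Cyp4a10, Cyp2j13 and Cyp4a31. Over all tested members, 41 log2 fold changes were positive and 12 negative, with a median of 0.43, while the median over all genes tested was 0.01.

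The family medians were 0.53 over 34 tested members of family 2, 0.30 over 5 of family 3 and 0.46 over 14 of family 4. The value of family 3 rests on few and mostly low genes, and without 5-Fu+BBR library 1 it was -0.58. A further fit set 5-Fu+BBR library 1 alone against the 3 libraries of 5-Fu. In it, the log2 fold changes of the 15 higher members ranged from -0.10 (Cyp2j13) to 2.58 (Cyp2j11). Cyp2e1 was at 2.05 and Cyp2f2 at 1.49, and only Cyp2j13 and Cyp2a4 (-0.04) turned sign. With a single library in a group, calls were not counted. The lone library was taken to vary like the 5-Fu libraries in that fit.

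**Figure D2:**
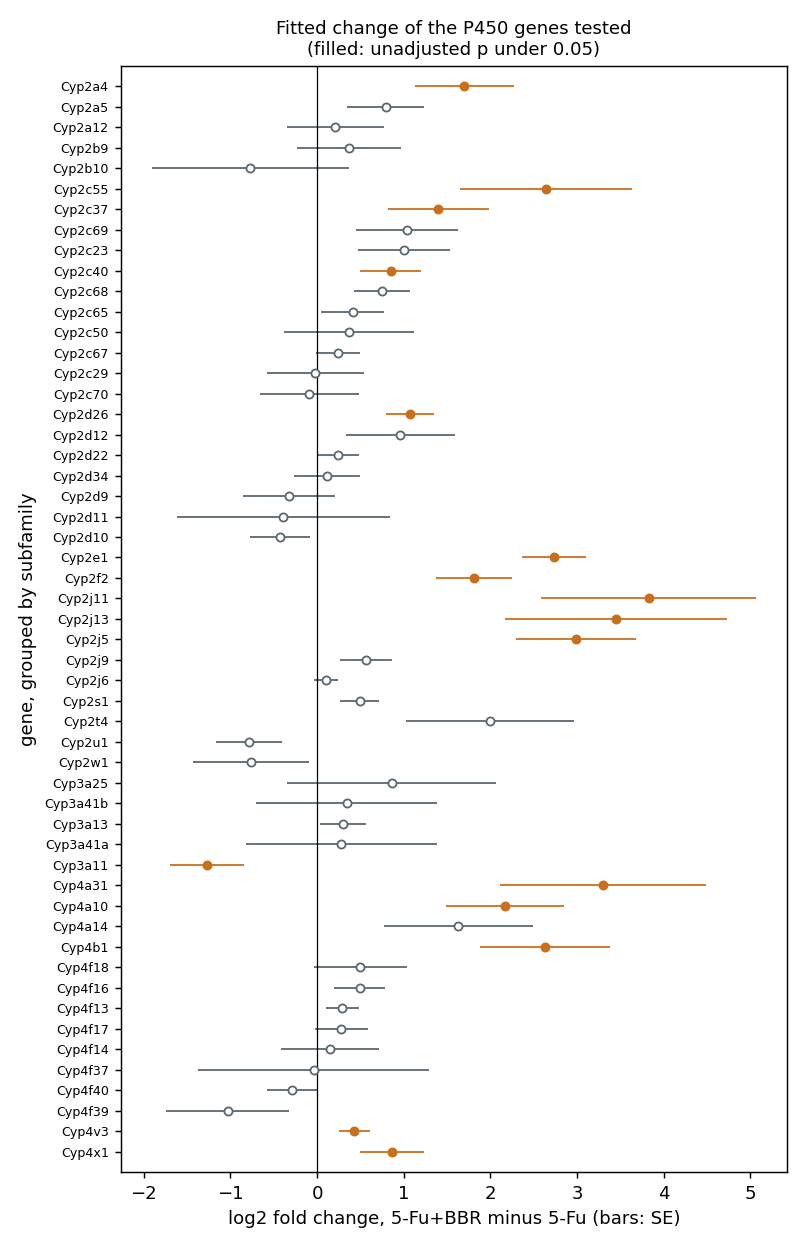
Log2 fold change (horizontal axis, 5-Fu+BBR minus 5-Fu) of the 53 tested members, grouped by subfamily, with bars of 1 SE. Filled orange points have an unadjusted p under 0.05; 15 of these lie to the right of 0 and Cyp3a11 lies to the left, at -1.27.

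Cyp2e1 oxidises ethanol, acetone and paracetamol (chromosome 7, 140763739 to 140774987, GRCm38). It was at 4.02, 5.70 and 2.70 CPM in 5-Fu and at 17.3, 38.7 and 27.1 CPM in 5-Fu+BBR. All 3 libraries with berberine lay above the 3 without, library 2 being the highest. The means were 4.14 ± 1.5 and 27.7 ± 10.7 CPM, a ratio of 6.69, and edgeR gave a log2 fold change of 2.74 ± 0.37 with an adjusted p of 0.0705. In DESeq2 the adjusted p was 1.05e-11, and over all the alternatives tried it ranged from that value to 0.578, the latter with 5-Fu+BBR library 1 alone, where the log2 fold change was 2.05. Cyp2e1 is also known from fat tissue. Of the 14 adipocyte markers tested, 11 were higher in 5-Fu+BBR at an unadjusted p under 0.05 (9.48% of all genes tested) and 0 lower. Their summed CPM was 205, 217 and 211 in 5-Fu and 403, 549 and 377 in 5-Fu+BBR. Lep, which encodes leptin, was at 0 throughout 5-Fu. All 3 adipocyte sums with berberine were above the others and library 2 was the highest, as for Cyp2e1. The lowest of the 3 was library 3 in the sums and library 1 in Cyp2e1. Smooth muscle markers also moved with the groups, 8 of 10 being higher at that p, with summed CPM of 3387, 2581 and 3030 in 5-Fu and 4687, 5396 and 5065 in 5-Fu+BBR. The part of either tissue in the values of Cyp2e1 and of the genes that follow was not tested.

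Cyp2f2, which activates naphthalene in the mouse lung, lies on the same chromosome (27119909 to 27133660). Its values were 4.95, 8.37 and 14.3 CPM in 5-Fu and 26.1, 24.2 and 46.6 CPM in 5-Fu+BBR. The groups did not overlap, and each group was highest in its library 3. The ratio of the means was 3.51, and the log2 fold change of 1.81 ± 0.44 did not pass the adjustment (adjusted p = 0.157 by edgeR). In DESeq2 its adjusted p was 3.51e-04, and over the alternatives it reached 0.779.

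Cyp2d26 on chromosome 15 was at 4.56, 3.65 and 5.97 CPM in 5-Fu and 7.47, 9.21 and 13.1 CPM in 5-Fu+BBR. Its groups did not overlap (log2 fold change 1.07 ± 0.28, adjusted p = 0.158 by edgeR, 0.0126 by DESeq2 and up to 0.852 over the alternatives), unlike those of the 6 other Cyp2d members tested. In that subfamily, 4 of 7 log2 fold changes were positive and 3 negative, with a median of 0.11. Cyp2d12 had means of 28.4 ± 15.4 and 55.1 ± 36.0 CPM without and with berberine, and Cyp2d22 was at 25.1 ± 3.92 and 29.7 ± 10.3 CPM. Cyp2d10 (30.0 ± 9.52 and 22.3 ± 9.43 CPM) and Cyp2d9 (44.7 ± 22.1 and 35.9 ± 18.8 CPM), which hydroxylates testosterone in male mouse liver, had the lower mean in 5-Fu+BBR. In all 4, the larger of the SDs exceeded the difference of the means, and the groups overlapped.

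A smaller or lower difference was seen in 4 more of the members at an unadjusted p under 0.05. Cyp2c40, an arachidonic acid hydroxylase of the mouse gut, was at 3.21, 3.13 and 5.60 CPM in 5-Fu and 6.41, 4.94 and 10.2 CPM in 5-Fu+BBR, with a log2 fold change of 0.85 ± 0.35. Its groups overlapped by 1 library. Cyp4v3 was at 13.3, 16.3 and 11.0 CPM in 5-Fu and 16.8, 17.8 and 20.3 CPM in 5-Fu+BBR (0.43 ± 0.18), a small difference without overlap in CPM, though the groups overlapped in FPKM. Cyp2c37, with means of 0.242 ± 0.127 and 0.648 ± 0.201 CPM, and Cyp4x1, at 0.737 ± 0.0928 and 1.34 ± 0.437 CPM, did not overlap either but were low in all libraries. Cyp4x1os, the antisense row, was at 0.0720, 0.0595 and 0.355 CPM in 5-Fu and at 0 throughout 5-Fu+BBR. With 3 fragments, or 12 counts, over the group as the floor, 5-Fu was at least 2.29-fold higher, but this rests on 5-Fu library 3, without which 8 counts remain and no bound can be given. The libraries mark strand, but the sources used here do not state whether counting used it, so reads of Cyp4x1 and of its antisense row may not be told apart.

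Cyp3a11, the main Cyp3a enzyme of the mouse liver and a classic target of the xenobiotic receptor Nr1i2, was the one member lower in 5-Fu+BBR at an unadjusted p under 0.05 (chromosome 5, 145854426 to 145879964). It was at 1.53, 1.32 and 1.34 CPM in 5-Fu and at 0.812, 0.615 and 0.307 CPM in 5-Fu+BBR. Every library with berberine lay below those without, and no library exceeded 0.251 FPKM, far under the level of Cyp3a13. The log2 fold change was -1.27 ± 0.43 (adjusted p = 0.227 by edgeR, 0.0987 to 0.872 over the alternatives). Summed CPM of the hepatocyte marker list was 231, 187 and 252 in 5-Fu and 227, 156 and 193 in 5-Fu+BBR. Its markers went both ways. Of the 19 tested, 4 were higher and 2 lower at an unadjusted p under 0.05 by edgeR (9.48% and 6.08% of all genes tested). The part of liver RNA in the value of Cyp3a11 was not tested. Cyp3a41a and Cyp3a41b, near-identical copies, had nearly the same values in each library, from 0.0722 to 1.47 CPM, and no order by group. Cyp3a25 was at 0.180 ± 0.180 and 0.330 ± 0.267 CPM, and Cyp3a16, Cyp3a44, Cyp3a57 and Cyp3a59 were too low to be tested.

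**Figure D3:**
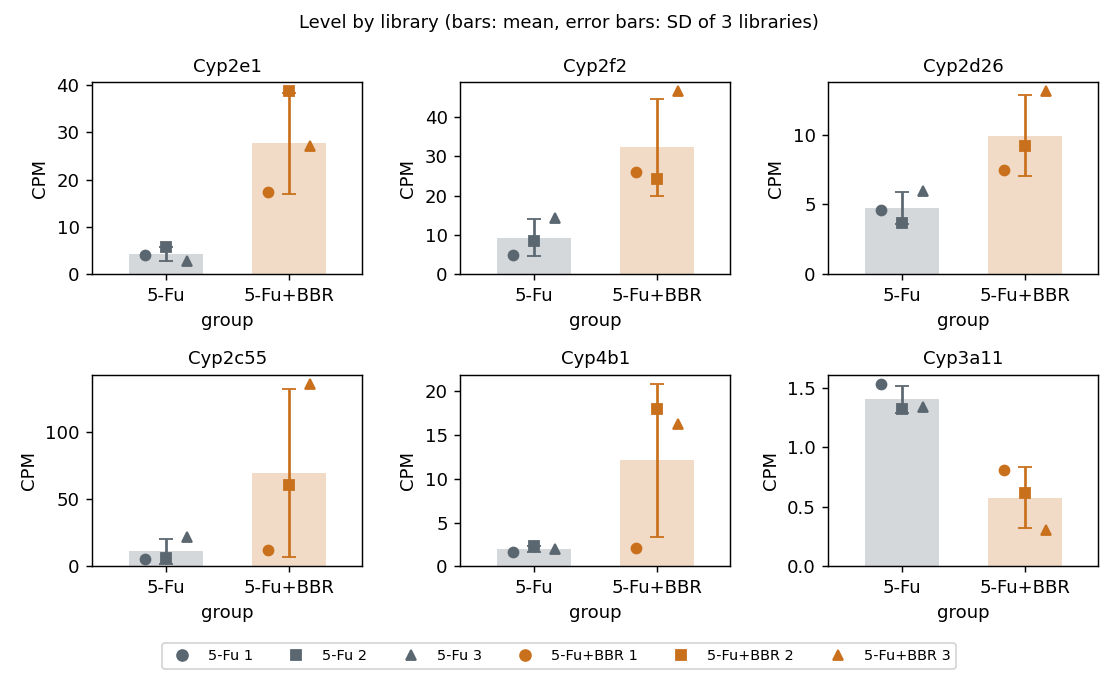
CPM of 6 members by group; points are libraries, bars the mean and error bars the SD of 3 libraries, each panel with its own axis from 0. Cyp2e1, Cyp2f2 and Cyp2d26 are higher in every 5-Fu+BBR library, Cyp3a11 is lower in every one, and in Cyp4b1 library 1 of 5-Fu+BBR, at 2.08 CPM, sits within the 5-Fu points.

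A different pattern held for 11 members, which were high in 5-Fu+BBR libraries 2 and 3 only. They were Cyp2j5, Cyp4b1, Cyp4a10, Cyp2a4, Cyp4a31, Cyp2j13, Cyp2c55, Cyp4a14, Cyp4a12a, Cyp2j11 and Cyp2r1. The rule was at least 0.1 CPM in both libraries and a lower value at least 2 times the highest of the other 4 libraries, and 1.14% of all rows in the table (350) met it. It takes its members by their values, so no test was made on it. Of the 15 higher members at an unadjusted p under 0.05, 8 were among the 11, and 3 of the 11 (Cyp2c55, Cyp4b1 and Cyp2j5) were expressed. The labels give nothing that sets these 2 libraries apart from library 1 of their group.

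Cyp2j5, an epoxygenase of arachidonic acid known from the mouse kidney, was at 0.793, 1.19 and 0.985 CPM in 5-Fu and at 1.64, 11.0 and 11.0 CPM in 5-Fu+BBR. Libraries 2 and 3 were at the same level, 6.70 times the highest of the others (log2 fold change 2.99 ± 0.69, adjusted p = 0.146 by edgeR). Cyp4b1, which oxidises fatty acids and plant toxins in lung and kidney, was at 1.62, 2.28 and 1.97 CPM in 5-Fu and at 2.08, 17.9 and 16.3 CPM in 5-Fu+BBR. Library 1 lay within the values of 5-Fu for Cyp4b1, at 1.06 times their mean, and above all 3 of them for Cyp2j5, at 1.66 times. The log2 fold change of Cyp4b1 was 2.63 ± 0.75 (adjusted p = 0.199 by edgeR). DESeq2 called both, and over the alternatives the adjusted p ranged from 6.42e-05 (DESeq2) to 0.877 for Cyp2j5 and from 7.59e-04 (DESeq2) to 0.990 for Cyp4b1. With library 1 alone, the log2 fold changes of Cyp2j5 and Cyp4b1 were 0.72 and 0.08.

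The Cyp4a enzymes, fatty acid hydroxylases of liver and kidney, followed in 4 of their 5 genes. Cyp4a10 was at 0.739, 0.834 and 0.236 CPM in 5-Fu and 0.812, 3.45 and 3.97 CPM in 5-Fu+BBR. Cyp4a14 was at 0.991, 0.789 and 0.0591 CPM in 5-Fu and 0.761, 2.86 and 2.13 CPM in 5-Fu+BBR. In both, library 1 with berberine lay inside the range of 5-Fu, and 5-Fu library 3 was the lowest. Cyp4a31 was at 0.149 ± 0.137 CPM in 5-Fu and at 0.186, 2.44 and 1.97 CPM in 5-Fu+BBR. Cyp4a12a, the kidney enzyme known in male mice for hydroxylating arachidonic acid, was at 0.144, 0 and 0.0788 CPM and then 0.169, 0.669 and 0.740 CPM. Its ratio of fragments, 5-Fu+BBR over 5-Fu, was 7.49 (95% counting interval 2.25 to 39.1).

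Cyp2a4, which hydroxylates steroids, was at 0.522, 0.863 and 0.847 CPM in 5-Fu and 0.727, 3.13 and 3.45 CPM in 5-Fu+BBR. Its neighbour Cyp2a5, the coumarin hydroxylase, was at 0.378, 0.685 and 0.453 CPM and then 0.710, 1.16 and 0.776 CPM, and did not meet the rule. Reads of Cyp2a4 and Cyp2a5, as similar copies, may not be fully told apart. Cyp2j13 was at 0, 0.253 and 0.177 CPM in 5-Fu and 0.135, 2.39 and 2.33 CPM in 5-Fu+BBR. Cyp2a4 and Cyp2j13 again held library 1 at the level of 5-Fu and libraries 2 and 3 close to each other. Cyp2j11 was near 0 in 5-Fu, with reads in library 3 only, and at 0.271, 0.651 and 0.992 CPM in 5-Fu+BBR (ratio of fragments 15.6, 95% interval 3.46 to 120). Cyp2r1, which hydroxylates vitamin D in the liver, was at 0, 0.104 and 0.0788 CPM and then 0.101, 0.434 and 0.253 CPM (ratio 4.08, 0.989 to 20.9). Intervals and floors cover counting error only, not the spread among libraries. Cyp4a12a, Cyp2j11 and Cyp2r1 were picked by a rule that favours a ratio above 1, so their intervals are no test of a difference.

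Cyp2c55 had the widest range of the 11, at 5.57, 6.45 and 21.7 CPM in 5-Fu and 12.3, 60.9 and 136 CPM in 5-Fu+BBR. It was uneven in 5-Fu too, where library 3 was the highest and lay above 5-Fu+BBR library 1, so the groups overlapped. The log2 fold change was 2.64 ± 0.99 (adjusted p = 0.291 by edgeR) and was 0.13 with library 1 alone. Within 5-Fu+BBR, library 3 was 2.24 times library 2. Its nearest neighbour Cyp2c65 (39061015 to 39093944, beside 39007019 to 39042693 for Cyp2c55) was at 1.43 ± 0.195 and 1.9 ± 0.767 CPM and did not share the pattern.

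By position, chromosome 4 holds 13 of the 67 members and 8 of the 11. These 8 fall into a Cyp2j cluster (96027534 to 96664154 from Cyp2j13 to Cyp2j5) and a cluster of Cyp4a genes and Cyp4b1 (115299046 to 115647723 from Cyp4a12a to Cyp4b1). The share of that chromosome among all rows meeting the rule was not counted. All 10 tested members on chromosome 4 had a positive log2 fold change, with a median of 2.40. Most of them are among the 11, whose sign the rule fixes, so neither value is a further result. The tested ones outside the 11 were Cyp2j6 (0.10 ± 0.14), Cyp2j9 (0.57 ± 0.30) and Cyp4x1 (0.86 ± 0.37). Within the Cyp2j cluster, however, Cyp2j6 was level across libraries, as given above, and Cyp2j9 was at 1.68 ± 0.435 and 2.50 ± 0.111 CPM, even in the 3 libraries with berberine. The Cyp4f genes of chromosome 17 had 0 members among the 11.

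Several of the 11 are known from the kidney, so a list of 20 kidney markers was read by the same rule. It was met by 15 of the 20, and the summed CPM of the list was 76.0, 78.4 and 85.5 in 5-Fu and 74.1, 270 and 270 in 5-Fu+BBR. Kap, an abundant androgen-regulated transcript of the mouse kidney, was at 7.89 to 10.5 CPM in 5-Fu and at 109 and 105 CPM in 5-Fu+BBR libraries 2 and 3, and the tubule gene Umod was at 0.811, 0.953 and 1.08 CPM and then 1.32, 14.6 and 12.5 CPM. None of the 20 markers was at 0 in all libraries. In the 15 markers, the ratio of 5-Fu+BBR library 3 to library 2 was 0.735 to 1.94. Of the 11 P450 genes, 9 had a ratio within that range, from 0.745 for Cyp4a14 to 1.52 for Cyp2j11, while Cyp2c55 at 2.24 lay above and Cyp2r1 at 0.582 below. How many of all rows meeting the rule fall in that range was not counted. It takes in equal levels of libraries 2 and 3, so the 9 cannot be read against other genes. Markers of acinar pancreas moved with 1 of these libraries. Of 12, 8 were at 0 throughout 5-Fu (Try4, Try5, Cela2a, Cela3b, Cpa1, Pnlip, Amy2a5 and Cel), and all 8 had reads in 5-Fu+BBR library 2, from 0.199 CPM for Cpa1 to 1.3 CPM for Pnlip. The summed CPM of that list was 134 to 209 in 5-Fu and 166 to 214 in 5-Fu+BBR, nearly all of it from Cela1. In 5-Fu+BBR library 3 the 8 were at 0, and in library 1 all but Cel, at 0.0676 CPM, were. What part kidney or pancreas RNA has in the values of the 11 was not tested. The rule was met by 0 of 20 hepatocyte, 0 of 14 adipocyte and 0 of 17 colonocyte markers and by 2 of 15 of macrophages and dendritic cells. The summed CPM of the colonocyte list was 10260 to 18494 in 5-Fu and 14067 to 14816 in 5-Fu+BBR.

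**Figure D4:**
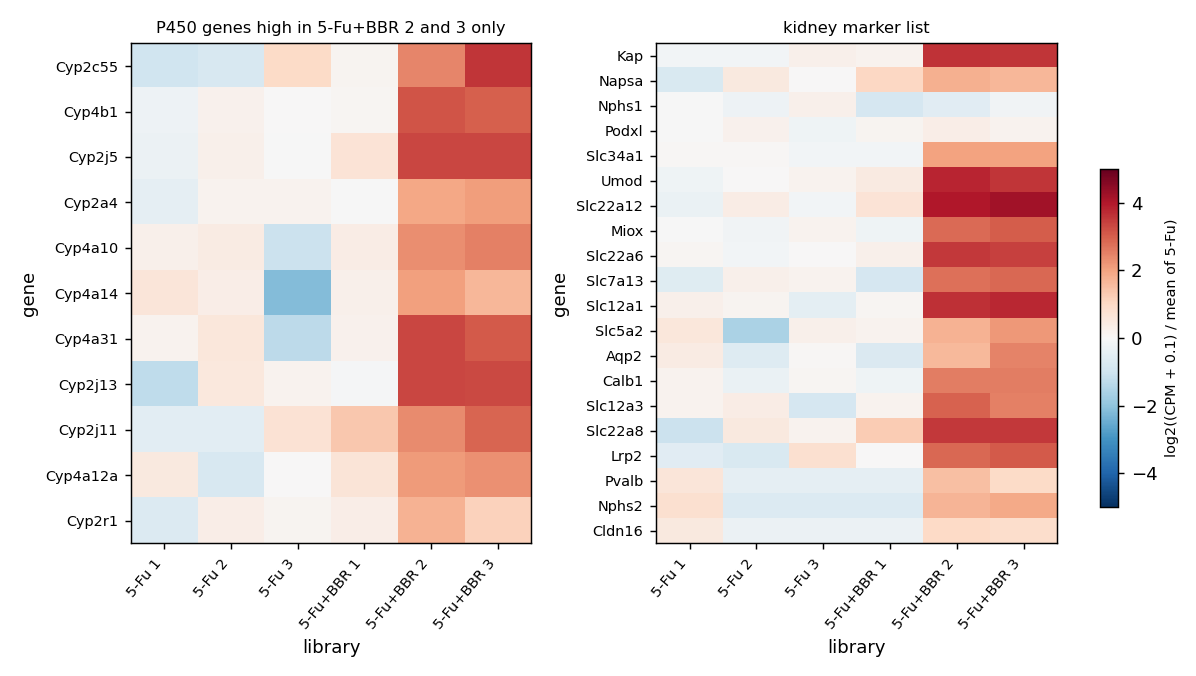
Heat maps of log2((CPM + 0.1) / mean of 5-Fu) by library for the 11 members high in 5-Fu+BBR libraries 2 and 3 only (left) and for the 20 kidney markers (right); red is above and blue below the 5-Fu mean. In both panels the red columns are libraries 2 and 3, and 15 of the 20 markers meet the rule of the left panel.

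The members not yet named with values were low. The tested ones among them with the largest negative log2 fold changes were Cyp4f39 (-1.03 ± 0.71), which acts on ceramides of the skin, Cyp2u1 (-0.79 ± 0.38), a fatty acid hydroxylase, and Cyp2b10 (-0.77 ± 1.14), a classic target of the receptor Nr1i3. Cyp2w1, known from fetal gut and human colon tumours, was at 1.66, 2.17 and 2.05 CPM in 5-Fu and 2.47, 0.307 and 0.685 CPM in 5-Fu+BBR. It was low in the same 2 libraries in which the 11 genes were high. Cyp2t4 was at 0.0809 ± 0.0819 and 0.338 ± 0.0880 CPM, Cyp2c23 at 0.694 ± 0.447 and 1.39 ± 0.533 CPM. The 14 members that were not tested had mean levels of at most 0.103 FPKM. Each of the 67 had reads in at least 1 library, but Cyp3a16 and Cyp3a59 had none in 5-Fu.

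Of 11 proteins that P450 enzymes work with, 0 passed the test. Por, the electron donor, was at 76.0 ± 5.87 CPM without and 71.0 ± 5.61 CPM with berberine, and Cyb5a, cytochrome b5, at 73.7 ± 6.43 and 70.0 ± 7.26 CPM. Their log2 fold changes were -0.10 ± 0.11 and -0.07 ± 0.12. Alas1, which starts haem synthesis, was at 176, 179 and 189 CPM and then 161, 139 and 137 CPM (-0.32 ± 0.11, unadjusted p = 0.0212, adjusted p = 0.244 by edgeR). Its groups did not overlap, and it was the only one of these partners at an unadjusted p under 0.05 (6.08% of all genes tested were lower at that p). Without overlap in CPM, 4 of the 11 partners, Alas1 among them, were lower in 5-Fu+BBR (9.68% of all genes tested). In the same way, 1 was higher (12.3%).

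Of 19 regulators of P450 genes, 0 passed and 2 were lower in 5-Fu+BBR at an unadjusted p under 0.05, where 6.08% of all genes tested were. The bile acid receptor Nr1h4 was at 99.4, 74.0 and 82.2 CPM in 5-Fu and 62.2, 51.4 and 62.3 CPM in 5-Fu+BBR (-0.54 ± 0.14, adjusted p = 0.153). Hnf4g, a nuclear factor of gut epithelium, was at 27.5, 22.0 and 20.8 CPM and then 16.0, 13.6 and 16.3 CPM (-0.62 ± 0.16, adjusted p = 0.153 by edgeR). Neither overlapped between groups. The xenobiotic receptor Nr1i2, at 76.1 ± 12.9 and 81.2 ± 11.1 CPM, and its relative Nr1i3, at 5.88 ± 1.18 and 4.59 ± 1.38 CPM, differed by less than the larger of their SDs.

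Among other P450 families, 13 genes were tested and 2 were lower at an unadjusted p under 0.05, where 6.08% of all genes tested were. Cyp51, of cholesterol synthesis, was at 271 ± 44.2 and 181 ± 49.3 CPM. Cyp21a1, of steroid synthesis, was at 0.234, 1.10 and 0.236 CPM in 5-Fu and at 0 in the 3 libraries of 5-Fu+BBR, at least 7.42-fold higher in 5-Fu and at least 3.33-fold without 5-Fu library 2. Cyp1a1, too low to be tested, was at 0, 0 and 0.138 CPM and then 0.152, 0.941 and 0.631 CPM (ratio of fragments 14.0, 95% interval 3.04 to 107). Cyp24a1, also too low, was at 0.0720, 0 and 0.118 CPM and then 0.152, 0.814 and 0.703 CPM. These 2 of the 21 genes met the rule for 5-Fu+BBR libraries 2 and 3, which 1.14% of all rows met. Cyp1a2 was at 0.224 ± 0.0789 and 0.239 ± 0.102 CPM.

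Enzymes that take over P450 products, or share their substrates, had 0 members that passed. Of 13 epoxide and eicosanoid enzymes, 3 were higher in 5-Fu+BBR at an unadjusted p under 0.05, where 9.48% of all genes tested were. The arachidonic acid lipoxygenase Alox15 was at 1.31, 0.610 and 0.611 CPM and then 5.28, 11.3 and 5.38 CPM (3.11 ± 0.46, adjusted p = 0.0705 by edgeR), with all 3 libraries of 5-Fu+BBR above the others. Alox12 (1.37 ± 0.44) and Ephx4 (0.85 ± 0.35) were the other two. The epoxide hydrolases Ephx1 and Ephx2 were at 20.3 ± 2.98 and 10.1 ± 0.894 CPM in 5-Fu and 25.0 ± 5.14 and 10.8 ± 1.5 CPM in 5-Fu+BBR. Of 25 enzymes of conjugation and related steps tested, 4 were higher at that p, again beside 9.48% of all genes tested. They were Fmo4 (1.41 ± 0.40), Fmo1 (0.92 ± 0.32), Sult2b1 (0.67 ± 0.25) and Ces1d (0.43 ± 0.18). The glucuronosyltransferases Ugt1a1 (18.1 ± 10.1 and 23.0 ± 12.6 CPM) and Ugt1a6a (16.4 ± 4.49 and 20.3 ± 9.78 CPM) overlapped between groups.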

How the data were processed

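RNA of whole colon was measured in 6 libraries, grouped by the treatment in the labels. Per the labels' protocols, polyadenylated RNA was made into strand-marked libraries with molecular identifiers and sequenced as paired reads of 150 bases. The tools in the submitters' processing notes are StringTie 1.3.4d, HISAT2 2.0.4, cutadapt 1.9, edgeR, DESeq2 and UMI-tools, and the build is GRCm38; roles and order are not stated. The table deposited by the authors holds estimated counts, as whole numbers, and FPKM per library. Among single-transcript genes above 50 counts, at least 92.1% per library had a count within 2% of FPKM times length times a library constant, and 19.8% of counts from 1 to 8 were 4. A fragment can thus be worth about 4 counts, and the precision of low counts is overstated.

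From the counts as deposited, 20101 of 30777 genes passed filterByExpr and were tested with edgeR 4.0.16 (R 4.3.3; TMM, robust quasi-likelihood, two-sided, Benjamini-Hochberg adjustment over all genes tested, no covariates). The biological coefficient of variation came to 0.296. CPM use TMM-adjusted library sizes. DESeq2 1.42.0, limma 3.58.1, other filters and scales, a replicate block, each library left out and 5-Fu+BBR library 1 alone were the alternatives. Only the edgeR step was tested on simulated counts, in which no low gene was changed. Non-overlap in FPKM in place of CPM and bounds with a library left out were added after seeing the data. Tables and figures used Python 3.11.15, pandas 2.3.3, scipy 1.17.1 and matplotlib 3.10.9. Bounds against a group at 0 use 12 counts over the group.

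Coordinates are those of the deposited table, and 63 of the 67 members have the same in GENCODE M21. The members and lists were chosen with earlier results of these data known. Named with values were members with a mean of at least 1 FPKM, at an unadjusted p under 0.05 or high in 5-Fu+BBR 2 and 3 only; other members appear by range or as examples chosen after their values were seen. From each non-marker list the first 2 genes and up to 6 at an unadjusted p under 0.05 were named, and Cyp24a1 for meeting the rule for 5-Fu+BBR 2 and 3. Marker lists not printed in the results were of dendritic cells and macrophages (summed CPM 480 to 611 in 5-Fu, 715 to 923 in 5-Fu+BBR), goblet cells (7455 to 13107, 13751 to 16026) and small intestine enterocytes (294 to 340, 297 to 361).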

Additional observations from a re-analysis of the deposited data

How the results depend on the processing

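The 15 genes passing over the whole table became 113 with a replicate block, 77 with no filter, 1227 with DESeq2 and 144 at an adjusted p under 0.1. Leaving out a library gave 0 (without 5-Fu 1 or 5-Fu+BBR 2) to 152 (without 5-Fu 2). The 0 P450 genes became 2 with the block (Cyp2e1, Cyp2f2), 8 with DESeq2 and 1 at an adjusted p under 0.1; leaving out a library gave 0 to 3, the 3 without 5-Fu+BBR 1 (Cyp2e1, Cyp2j5, Cyp4b1). The 16 at an unadjusted p under 0.05 became 8 to 20 with a library left out, 8 without 5-Fu 1 and 9 without 5-Fu+BBR 3. The 3 partners and regulators became 5 with DESeq2 size factors, 5 with DESeq2, 6 with limma-voom and 2 to 5 with a library left out. The median of family 2 was 0.19 on log2(FPKM + 1), where a pseudocount of 1 shrinks low genes. That of family 3 was -0.48 with at least 50 counts in 3 libraries, -0.48 with counts divided by 4, 1.28 with 5-Fu+BBR 1 alone and -0.58 to 0.85 with a library left out. That of family 4 was 0.18 with 5-Fu+BBR 1 alone and 0.34 to 0.74 with a library left out. At 4-fold in place of 2-fold, 5 genes were high in 5-Fu+BBR 2 and 3 only, and at a mean of 0.1 FPKM 50 members were expressed. With 5-Fu+BBR 1 alone, log2 fold changes turned sign in Cyp4f18 (-0.45), Cyp2j13 (-0.10), Cyp2c67 (-0.10), Cyp2a4 (-0.04) and Cyp4f40 (0.01). With a library left out they ranged from -0.18 to 1.04 in Cyp4f14, -0.01 to 0.24 in Cyp2j6, -0.07 to 0.41 in Cyp2d22, -0.02 to 0.39 in Cyp2c67, -0.48 to 0.06 in Cyp4f40 and -0.17 to 0.63 in Cyp2d34, none of them called. Where no reason is given, the cause was not tested. Replicate numbers are shared between groups only as numbers: the deviations of same-numbered libraries correlated at 0.0408, 0.049 and 0.189, and not every library correlated best with its own number, so the block pairs nothing that the labels state. Levels near 0.1 CPM rest on about 1 fragment per library, and differences there were not detectable at this depth.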
